A study of Mus musculus with 18 samples.

Results

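Akna and 9 other genes of centrosomal microtubule organisation were followed, probe by probe and mouse by mouse, in RNA of the adult subventricular zone (SVZ), the neurogenic wall of the lateral ventricle. The 10 genes are Akna, Nin, Ninl, Odf2, Pcnt, Cdk5rap2, Camsap3, Plk4, Cep152 and Aspm, and all 27 probes with only that gene's symbol were taken. Of these, 13 passed the detection filter (a detection p below 0.05, meaning a signal above the negative control beads, on at least 9 of 18 arrays), so that 9 of the 10 genes were among the 11465 genes tested. Aspm had no probe that passed. Akna was selected on its difference between the Tam-Idh1-KI and control groups in these same arrays, with an adjusted p of 0.0471, so its group values below are a description and support nothing. The other 9 were chosen for their place at the centrosome, with earlier results of these arrays known.

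The tissue was frozen, dissected SVZ of 9 Tam-Idh1-KI and 9 control mice of the c57bl6 label, hybridised to Illumina Mouse WG6-v2 arrays. Tam-Idh1-KI mice carried Nes-CreER(T2) and 1 Idh1 allele that gains the R132H mutation on recombination, and were injected intraperitoneally with tamoxifen at 50 mg/kg for 5 days at 5 to 6 weeks of age. Controls were Idh1+/+ littermates, with or without the Nes-Cre transgene, given the same tamoxifen. The nestin promoter is active in stem cells, transit-amplifying cells and niche astrocytes, so other cells of the dissected tissue need not carry the mutation, and the targeted allele is known to be leaky. Mice were 5 to 9 months old in both groups (median 5 in Tam-Idh1-KI, 6 in control). On the first hybridisation day 6 arrays of each group were run (2 females and 4 males in each), from mice of 5 or 6 months. Among these, all Tam-Idh1-KI mice but T1 were 5 months old and all controls but C5 were 6, so genotype and age nearly coincide on that day. On the second, 3 of each group were run (3 females in Tam-Idh1-KI, 1 female and 2 males in control), from mice of 7 to 9 months, so hybridisation day and age cannot be told apart. Mean raw signal ran from 460 to 905 in Tam-Idh1-KI and 454 to 679 in control arrays, 44.6% to 50.9% of probes were detected, and arrays correlated at 0.955 to 0.995. The Idh1 probe, which reads transcript amount and not the base change, stood at 8.82 to 9.73 in Tam-Idh1-KI and 9.26 to 10.03 in control on the log2 scale, a difference of -0.37 ± 0.10 (SE; limma adjusted p = 0.212). SVZ markers were present: Dcx, Dlx2, Gfap and Nes were detected on all 18 arrays, while Cd24a was detected on 11 and Prom1 on 9.

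A centrosome is a pair of centrioles in a pericentriolar matrix that nucleates microtubules from gamma-tubulin rings. The older centriole carries subdistal appendages, which anchor microtubule minus ends, and its position and anchoring capacity shape how a neural progenitor keeps its contact with the ventricle. AKNA was first described as an AT-hook factor at the Cd40 and Cd40lg promoters of lymphocytes and was later placed at the subdistal appendages of mouse neural progenitors, where it organises centrosomal microtubules and favours delamination into the SVZ. Ninein (Nin), ninein-like protein (Ninl) and ODF2 belong to the anchoring structures. Pericentrin (Pcnt) and CDK5RAP2 scaffold the matrix, CAMSAP3 holds free minus ends away from the centrosome, PLK4 and CEP152 drive centriole duplication, and ASPM sits at the spindle pole.

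The bases before the transcription start are shown for Akna and Ninl, the genes in which every Tam-Idh1-KI mouse lay above the control mean of its day. They are also shown for Plk4, Cep152 and Aspm, which were among the members with higher values on the second hybridisation day. The sequences come from the RefSeq annotation of mouse build GRCm38.p6, in which 9 of the 10 genes had an entry and Camsap3 had none. Each is the 250 bases before a start, 5′ to 3′ on the gene's strand, with capitals for any match on either strand to 3 motifs of cell-cycle promoters: TTTGAA (cell cycle genes homology region), CCAAT (the element bound by NF-Y) and GCGGGAA (a site for E2F factors). Akna has 2 annotated starts, at chr4:63403446-63403695 and chr4:63402604-63402853, both on the minus strand. Ninl is at chr2:151009399-151009648 on the minus strand, Plk4 at chr3:40799701-40799950 on the plus strand, Cep152 at chr2:125625114-125625363 on the minus strand and Aspm at chr1:139454523-139454772 on the plus strand.
Akna, upstream start: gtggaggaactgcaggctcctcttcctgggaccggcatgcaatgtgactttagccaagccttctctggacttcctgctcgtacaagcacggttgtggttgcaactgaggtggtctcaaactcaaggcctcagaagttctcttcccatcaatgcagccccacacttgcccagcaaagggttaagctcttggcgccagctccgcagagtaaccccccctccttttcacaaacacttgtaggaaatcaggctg
Akna, downstream start: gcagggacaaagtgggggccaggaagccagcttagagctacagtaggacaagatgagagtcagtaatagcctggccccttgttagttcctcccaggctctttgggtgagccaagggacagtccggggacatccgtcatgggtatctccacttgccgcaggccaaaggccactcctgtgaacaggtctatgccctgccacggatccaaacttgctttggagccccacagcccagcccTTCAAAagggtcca
Ninl: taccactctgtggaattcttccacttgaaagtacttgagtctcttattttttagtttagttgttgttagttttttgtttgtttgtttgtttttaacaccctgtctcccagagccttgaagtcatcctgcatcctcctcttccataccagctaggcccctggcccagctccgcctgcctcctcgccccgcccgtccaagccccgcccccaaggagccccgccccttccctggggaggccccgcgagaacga
Plk4: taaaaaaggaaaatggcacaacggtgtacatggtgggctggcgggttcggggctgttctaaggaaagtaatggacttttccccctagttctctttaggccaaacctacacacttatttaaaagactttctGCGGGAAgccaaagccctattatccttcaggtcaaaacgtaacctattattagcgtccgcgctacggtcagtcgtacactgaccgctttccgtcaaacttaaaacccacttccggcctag
Cep152: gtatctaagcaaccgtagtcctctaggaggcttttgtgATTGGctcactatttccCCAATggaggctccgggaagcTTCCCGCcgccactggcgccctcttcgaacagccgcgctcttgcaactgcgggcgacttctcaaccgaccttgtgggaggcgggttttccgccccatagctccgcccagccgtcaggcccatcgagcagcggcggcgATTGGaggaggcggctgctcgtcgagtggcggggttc
Aspm: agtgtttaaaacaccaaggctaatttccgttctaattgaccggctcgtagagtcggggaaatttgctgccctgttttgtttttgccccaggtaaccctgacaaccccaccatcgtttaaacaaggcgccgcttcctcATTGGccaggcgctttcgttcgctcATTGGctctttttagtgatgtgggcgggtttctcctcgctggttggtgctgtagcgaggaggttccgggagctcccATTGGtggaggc
The Akna window at the upstream start and the Ninl window held none of the 3 motifs, and the downstream Akna window held 1 TTTGAA match, in the reverse orientation. Cep152 held 3 CCAAT and 1 GCGGGAA matches, Aspm 3 CCAAT matches and Plk4 1 GCGGGAA match. The window of Cdk5rap2, also higher on the second day but not printed, held none of the 3 motifs. Of all 32851 promoter windows of this length, 16% held TTTGAA, 33.8% CCAAT and 3.82% GCGGGAA, while of the 15 windows of the 9 members with an entry 4 held TTTGAA (in Akna, Nin and Odf2), 6 held CCAAT (in Aspm, Cep152, Nin and Odf2) and 3 held GCGGGAA (in Cep152, Pcnt and Plk4). The motifs were searched separately, and no matches overlapped in the windows printed here. Among the Odf2 windows, which are not printed, the same TTTGAA and CCAAT bases lie in 2 overlapping windows and are counted in both. A match describes letters in these windows and is no measure of binding.

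Akna has 1 probe on the array (ILMN_2787785), detected on all 18 arrays, with a largest detection p of 0.0118. In Tam-Idh1-KI mice its log2 normalised intensity was lowest at 6.70 (T8), with a median of 7.02 and a highest value of 7.40 (T4). In control mice it ran from 6.09 (C7) through a median of 6.38 to 6.93 (C3). The groups overlapped: 6 of 9 Tam-Idh1-KI mice lay above every control and 7 of 9 controls below every Tam-Idh1-KI mouse, and the overlap was made by T6, T8 and T9 with the controls C3 and C4. Means were 7.01 ± 0.25 and 6.42 ± 0.26 (SD, n = 9 each), and the fitted difference, with hybridisation day and sex as covariates, was 0.59 ± 0.12 (SE) on the log2 scale, a 1.51-fold higher intensity. All 9 Tam-Idh1-KI mice were above the control mean of their day. The difference of plain means, with no sex term, was 0.54 among the 12 mice of the first day and 0.70 among the 6 of the second. On that second day all 3 Tam-Idh1-KI mice were female and 2 of 3 controls male, so sex enters the value. The direction was the same in all 35 alternative settings, with values of 0.27 to 0.70, and in 27 of them the adjusted p was above 0.05. These settings reuse the contrast that selected Akna, and those that change only the choice or filter of probes return the same value. Leaving out 1 array at a time gave 0.53 to 0.65. The threshold was still passed without T6, T8, C3 or C4 and was missed without any 1 of the other 14 arrays (limma adjusted p 0.0543 to 0.147). With the replicate number as a block it was 0.57 (limma adjusted p = 0.0945). The tissue is a mixture, so more cells of a type and more RNA per cell cannot be told apart here or in any value below.

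**Figure D1:**
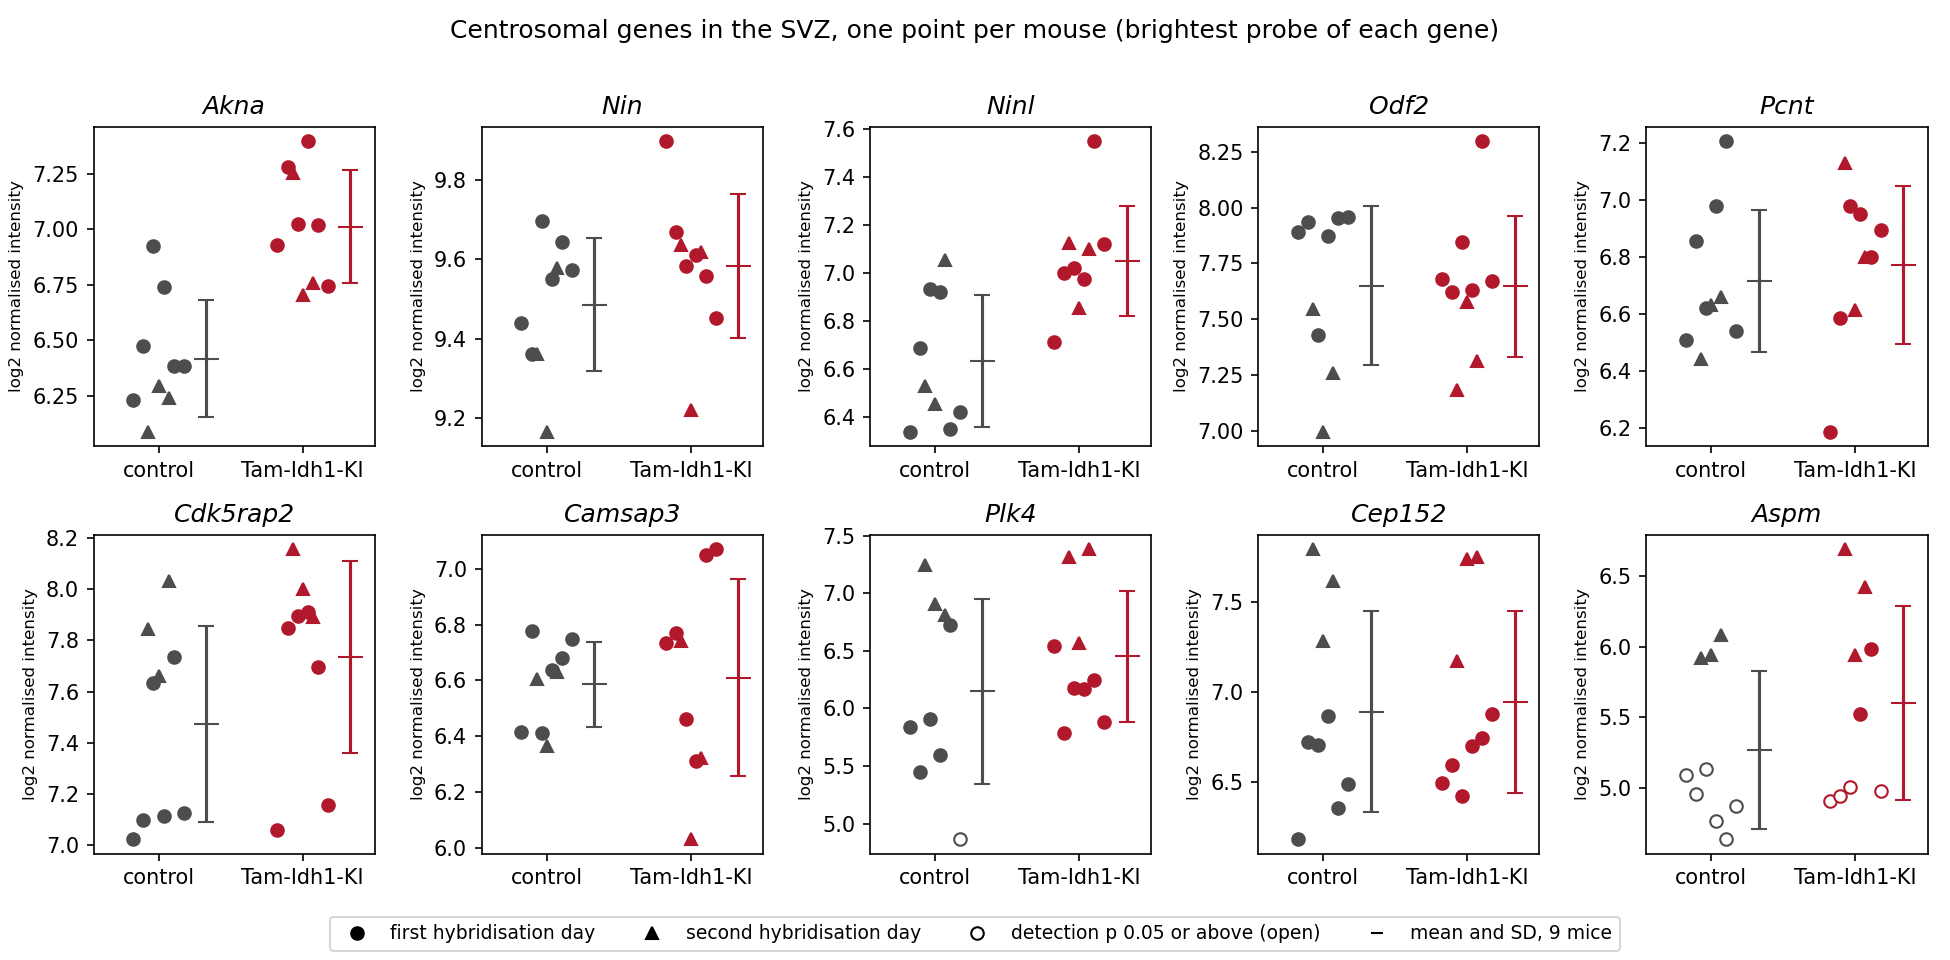
Log2 normalised intensity (vertical axis) of the brightest probe of each of the 10 genes in 9 control (grey) and 9 Tam-Idh1-KI (red) mice, with circles for the first and triangles for the second hybridisation day, open symbols for a detection p of 0.05 or above, and the mean with SD beside each group. Akna runs from 6.09 to 6.93 in control and 6.70 to 7.40 in Tam-Idh1-KI mice, while for Cep152 the days do not overlap and the groups do.

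Among the anchoring genes, Ninl came next to Akna in its difference between groups. Its brightest probe (ILMN_2677065) ran from 6.71 (T1) through a median of 7.02 to 7.55 (T5) in Tam-Idh1-KI mice and from 6.34 (C1) through 6.53 to 7.05 (C9) in controls. The groups overlapped, with 4 Tam-Idh1-KI mice above every control and 6 controls below every Tam-Idh1-KI mouse. The difference was 0.42 ± 0.13 (SE), 1.34-fold, with 9 of 9 Tam-Idh1-KI mice above the control mean of their day, and did not pass the threshold over all genes (limma adjusted p = 0.250). Within days the difference of plain means was 0.45 and then 0.35, and the fitted difference stayed positive in all 35 alternative settings (0.20 to 0.51, limma adjusted p 0.113 to 1.00). The other 2 Ninl probes were detected on 1 and 0 arrays and differed by 0.09 and 0.06, values at the level of the background beads.

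Nin, the subdistal appendage protein itself, stood at 9.22 to 9.90 (median 9.61) in Tam-Idh1-KI mice and 9.17 to 9.70 (median 9.55) in controls. The groups overlapped almost wholly, and the difference was 0.13 ± 0.08 (SE; limma adjusted p = 0.686), or 0.06 ± 0.10 with the mean of the kept probes. Its 5 probes did not give 1 picture. The second probe, also detected on all 18 arrays, differed by 0.09 ± 0.10, and another, detected on 12, by -0.03 ± 0.18. The fourth did not pass the filter: it was detected on 7 Tam-Idh1-KI arrays and 1 control array, ran from 4.86 to 5.70 against 4.54 to 5.37, and differed by 0.34 ± 0.11 (SE), with no test because it lay so near the background. The fifth was detected on no array.

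Odf2, the appendage protein that sperm tails share, had 6 probes, of which 3 passed the filter. The brightest ran from 7.18 to 8.30 (median 7.63) in Tam-Idh1-KI mice and from 7.00 to 7.96 (median 7.87) in controls. The groups overlapped almost wholly, with a difference of -0.02 ± 0.11 (SE, limma adjusted p = 0.983). The 2 other kept probes differed by -0.24 ± 0.14 and -0.27 ± 0.19 (limma adjusted p = 0.673 and 0.748 over the probes), each with 3 of 9 Tam-Idh1-KI mice above the control mean of their day. With the mean of the 3 kept probes in place of the brightest the difference was -0.18 ± 0.11 (limma adjusted p = 0.667). The sign of the brightest probe's difference changed in 8 of the 35 alternative settings.

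The matrix scaffolds overlapped between groups. Cdk5rap2, which tethers gamma-tubulin rings, ran from 7.06 to 8.16 (median 7.89) in Tam-Idh1-KI mice and from 7.02 to 8.03 (median 7.63) in controls. On the first day 4 of 6 controls lay between 7.02 and 7.13 and the other 2 at 7.63 and 7.73, while 4 of 6 Tam-Idh1-KI mice lay between 7.70 and 7.91 and the other 2 at 7.06 and 7.16. The difference was 0.28 ± 0.14 (SE), with 7 of 9 Tam-Idh1-KI mice above their day's control mean (limma adjusted p = 0.548), and 0.07 ± 0.12 with the mean of the mitotic markers as a covariate. Its 2 other probes were detected on 2 and 0 arrays. Pcnt ran from 6.19 to 7.13 against 6.44 to 7.21, a difference of 0.06 ± 0.13 (limma adjusted p = 0.951), which was 0.16 without T1 and 0.0063 without T7. Camsap3, the minus-end binder, had medians of 6.73 and 6.63 and a difference of 0.03 ± 0.12 (limma adjusted p = 0.980), and its Tam-Idh1-KI values (SD 0.35) were more spread than its control values (SD 0.15), a contrast that was not tested. The sign of its difference changed in 7 of 35 alternative settings.

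The duplication genes varied more within groups than between them. Plk4 ran from 5.78 (T2) to 7.38 (T9) in Tam-Idh1-KI mice, with a median of 6.25, and from 4.86 (C6, where the probe was not detected) to 7.24 (C7) in controls, with a median of 5.90. Its difference was 0.34 ± 0.20 (SE), with 8 of 9 Tam-Idh1-KI mice above their day's control mean (limma adjusted p = 0.631). Cep152, the scaffold that recruits PLK4, differed by 0.08 ± 0.11 (limma adjusted p = 0.902). The 2 further Plk4 probes were each detected on 1 control array and differed by -0.19 and -0.06. Aspm was read by 2 probes that failed the filter. The better one was detected on 5 Tam-Idh1-KI and 3 control arrays, ran from 4.91 to 6.69 (median 5.52) against 4.63 to 6.08 (median 5.09), and differed by 0.29 ± 0.14 (SE, no test).

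Of the 9 tested members, 1 (Akna, which the choice fixes) was called higher and 0 lower at an adjusted p below 0.05, against 0.0959% and 0.0785% of all genes tested. Counting unadjusted p below 0.05, 2 members were higher (Akna and Ninl) where 6.43% of all genes were, and 0 were lower where 3.14% were. Positive differences were found for 8 of 9 members, and for 7 of the 8 without Akna, against 54.5% of all genes. At the level of probes, where 0.0975% of 18460 were called, none of the 13 member probes passed, and Akna's had an adjusted p of 0.0602 in limma. The plot of all 27 probes shows how far probes of 1 gene differ.

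**Figure D2:**
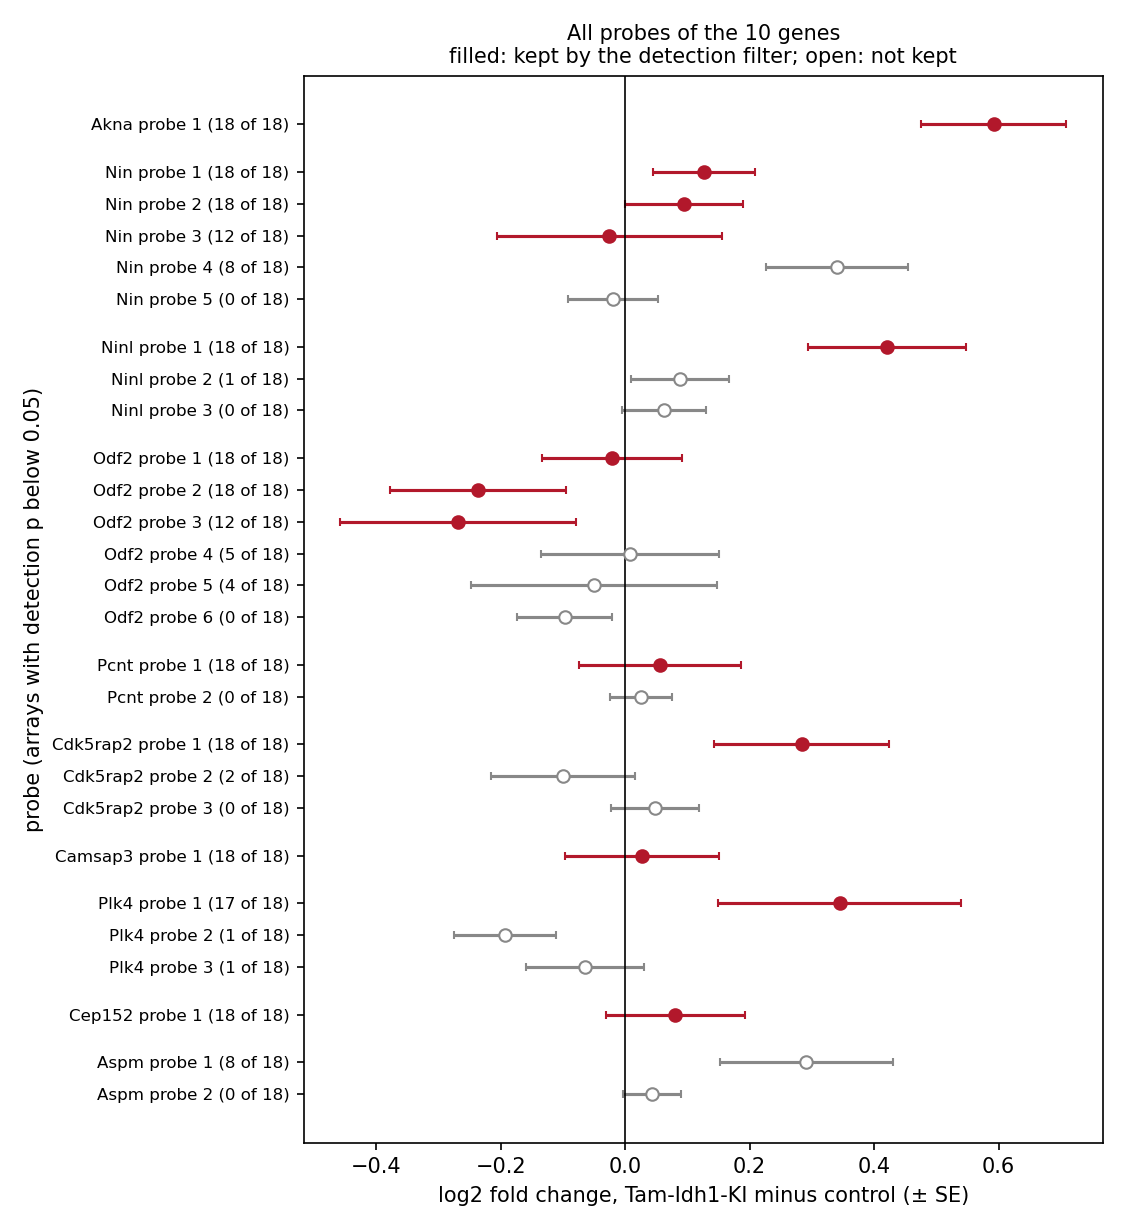
Log2 fold change (Tam-Idh1-KI minus control, horizontal axis, with SE) of each of the 27 probes, grouped by gene, with the number of the 18 arrays that detected it beside its name. Filled points passed the detection filter and open points did not. Akna's only probe is at 0.59, while the 3 kept Odf2 probes lie at -0.02, -0.24 and -0.27.

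The hybridisation day, a measure that did not enter the choice of genes, separated several members more than the genotype did. Cep152 ran from 6.18 to 6.88 on the first day and from 7.17 to 7.79 on the second, with no overlap, a difference of 1.01 ± 0.12 (SE; limma adjusted p = 1.62e-06). Plk4 was higher on the second day by 1.17 ± 0.21 (limma adjusted p = 0.000134), with 6.57 to 7.38 against 4.86 to 6.73. Cdk5rap2 was higher by 0.52 ± 0.15 (limma adjusted p = 0.00602). Odf2 was lower on the second day (-0.53 ± 0.12, limma adjusted p = 0.000991). Akna, Nin, Ninl, Pcnt and Camsap3 did not pass, with -0.24, -0.11, 0.02, -0.04 and -0.22. The 4 of 9 members called stand against 63.8% of all genes called in this comparison, so a call here is not particular to these genes. The better Aspm probe was detected on 2 of 12 arrays of the first day and on 6 of 6 of the second. The reverse held for 1 kept probe of Nin and 1 of Odf2, each detected on all 12 arrays of the first day and on none of the second: the Nin probe ran from 6.03 to 7.35 on the first day and from 4.51 to 5.26 on the second. The Odf2 probe ran from 6.24 to 7.71 and from 4.52 to 4.89. The second Odf2 probe had a mean 0.33 higher on the second day, where that of the brightest probe was 0.50 lower.

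**Figure D3:**
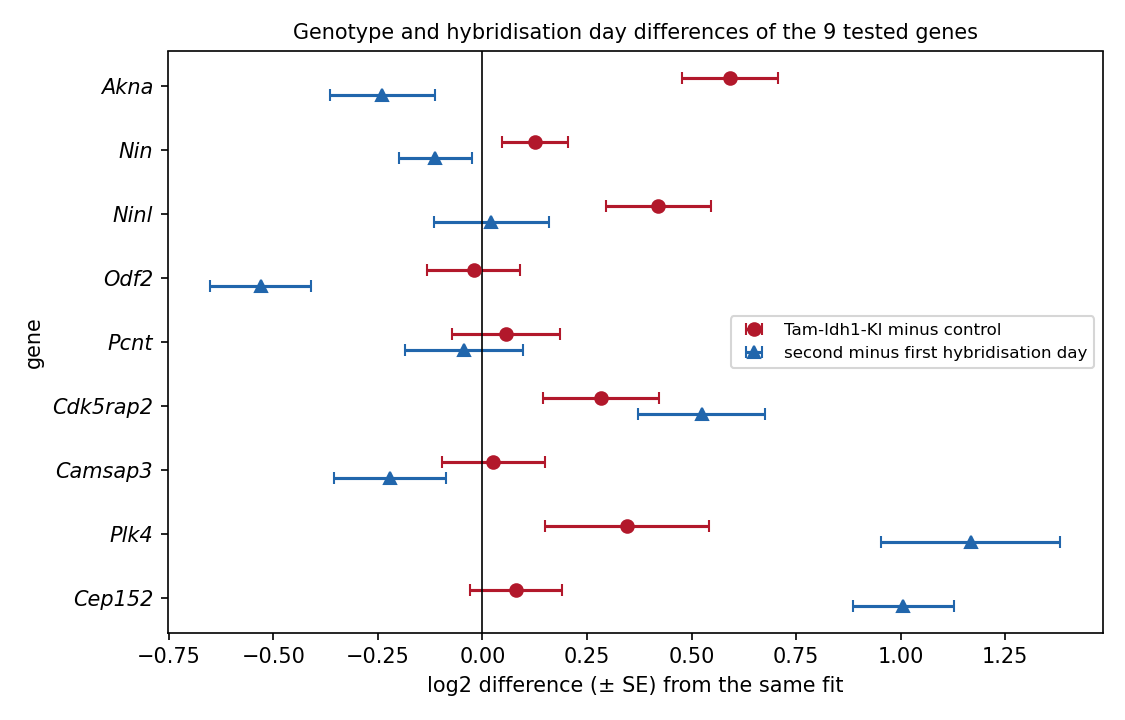
Log2 differences with SE (horizontal axis) of the 9 tested genes from 1 fit: Tam-Idh1-KI minus control as circles and second minus first hybridisation day as triangles. Plk4 and Cep152 differ by over 1 between days (1.17 and 1.01) and by 0.34 and 0.08 between genotypes, and Akna is the gene with the widest genotype difference, 0.59.

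The genotype difference was asked separately by day and by sex. No member had an adjusted p below 0.05 for an interaction with day, where 0% of all genes did, or with sex, where 0.00872% did. For Akna the day interaction was 0.17 ± 0.26 (SE) and for Pcnt, the member with the widest, 0.37 ± 0.28. The sex interaction (male minus female) was -0.28 ± 0.24 for Akna, -0.41 ± 0.26 for Ninl and -0.47 ± 0.28 for Cdk5rap2, and with these errors a difference between the sexes of such a size was not detectable. Sex itself gave 0 calls among the members, against 0.0262% of all genes, and Akna differed by -0.01 ± 0.12 between males and females.

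The way members varied together was looked at in the residuals from genotype, day and sex over the 18 arrays. Permutation p-values here and for the marker lists shuffled residuals freely over arrays. They make no allowance for the fitted terms and so are somewhat too small. Of 36 pairs of tested members, Akna and Cdk5rap2 had the highest correlation (Pearson r = 0.52, permutation p = 0.0285, Spearman rho = 0.49, permutation p = 0.0434, two-sided). It was 0.55 within the first day and 0.48 within the second, and 0.47 without the 2 arrays farthest from the median of Akna. Akna and Odf2 ran against each other (r = -0.50, permutation p = 0.0341, rho = -0.51, permutation p = 0.0343), with -0.46 and -0.61 within days and -0.31 without those 2 arrays. Ninl and Cep152 followed (r = 0.49, permutation p = 0.0380, rho = 0.52, permutation p = 0.0278), with 0.79 within the first day and -0.14 within the second. After adjustment over the 36 pairs none passed (adjusted permutation p = 0.457 for each by r and 0.390 by rho). Akna and Ninl, with the 2 widest genotype differences, correlated at 0.38 (permutation p = 0.121, rho = 0.50, permutation p = 0.0357, adjusted 0.602 and 0.390, and r = 0.27 without the 2 farthest arrays).

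Over all 11465 genes the residual pattern most like that of Akna by Pearson r was that of Fzd6, a Wnt receptor (r = 0.90, rho = 0.78). It was followed by Zfp511 (r = 0.89, rho = 0.87) and Exoc2, a subunit of the exocyst, which had the highest rho of the 6 genes named (r = 0.89, rho = 0.93). Bcl2a1d (r = 0.87, rho = 0.85), D730003I15Rik (r = 0.87, rho = 0.84) and Washc3, a subunit of the WASH complex (r = 0.86, rho = 0.87), came next. None of these 6 was called between genotypes. The correlations are a description over 18 arrays that share their normalisation, and the highest of 11465 is high by choice.

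Genes around the members were read from lists of the centrosome's parts, compiled with results of these arrays known. Genes named from these lists, and from those of known contexts below, were taken by smallest unadjusted p for genotype. Their differences and counts of mice above the control mean follow from that choice and support nothing. Of 93 genes in 6 lists, 63 were tested, 46 had a positive and 17 a negative difference, and 0 were called, with 5 higher and 2 lower at an unadjusted p below 0.05. Over all genes 54.5% were positive, 6.43% were higher and 3.14% lower at that p. Their median log2 fold change was 0.08, beside 0.013 over all genes. In the gamma-tubulin complex 6 of 7 tested genes were positive (median 0.08), and Mzt2, a small protein of the ring, differed by 0.17 ± 0.07 (SE; limma adjusted p = 0.473). In the matrix and satellite list 5 of 7 were positive (median 0.017), with Pde4dip, the relative of Cdk5rap2, at 0.12 ± 0.06 (limma adjusted p = 0.591). Of the centriole duplication genes 12 of 14 were positive (median 0.11), and Poc1b, a protein of the centriole wall, differed by 0.30 ± 0.09, with all 9 Tam-Idh1-KI mice above their day's control mean (limma adjusted p = 0.227).

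The appendage list, which is not limited to the subdistal appendages where AKNA was placed, was even, with 7 of 13 positive and a median of 0.0056. Dctn1, the dynactin subunit that binds microtubules, was at -0.46 ± 0.12 (SE), with 0 of 9 Tam-Idh1-KI mice above the control mean of their day (limma adjusted p = 0.181), and Mapre1, the plus-end protein EB1, at 0.18 ± 0.07 with 9 of 9 (limma adjusted p = 0.406). Among the minus-end binding and severing genes 5 of 8 were positive (median 0.10), and Camsap2, the close relative of Camsap3, was at -0.32 ± 0.16 (limma adjusted p = 0.557). In the spindle pole and augmin list 11 of 14 were positive (median 0.08). Kif11, the spindle kinesin, differed by 0.45 ± 0.13 with 9 of 9 mice above (limma adjusted p = 0.229). Lmnb1, lamin B1, was at 0.29 ± 0.12 with 7 of 9 above and Mcph1, microcephalin, at -0.70 ± 0.30 with 2 of 9 (limma adjusted p = 0.472 for each).

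3 further lists touch known contexts of these genes. In the centriole amplification programme of multiciliated cells 4 of 8 genes were positive (median 0.011), with Rfx2, a ciliary transcription factor, at 0.38 ± 0.15 (SE; limma adjusted p = 0.447). In the delamination and epithelial-mesenchymal transition list 8 of 17 were positive (median -0.0045), with Tgfbr2, a TGF-beta receptor, at 0.34 ± 0.12 and 9 of 9 mice above (limma adjusted p = 0.349). Of the Cd40 axis 2 of 6 genes were tested and neither was called. No gene of these 3 lists passed the threshold.

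**Figure D4:**
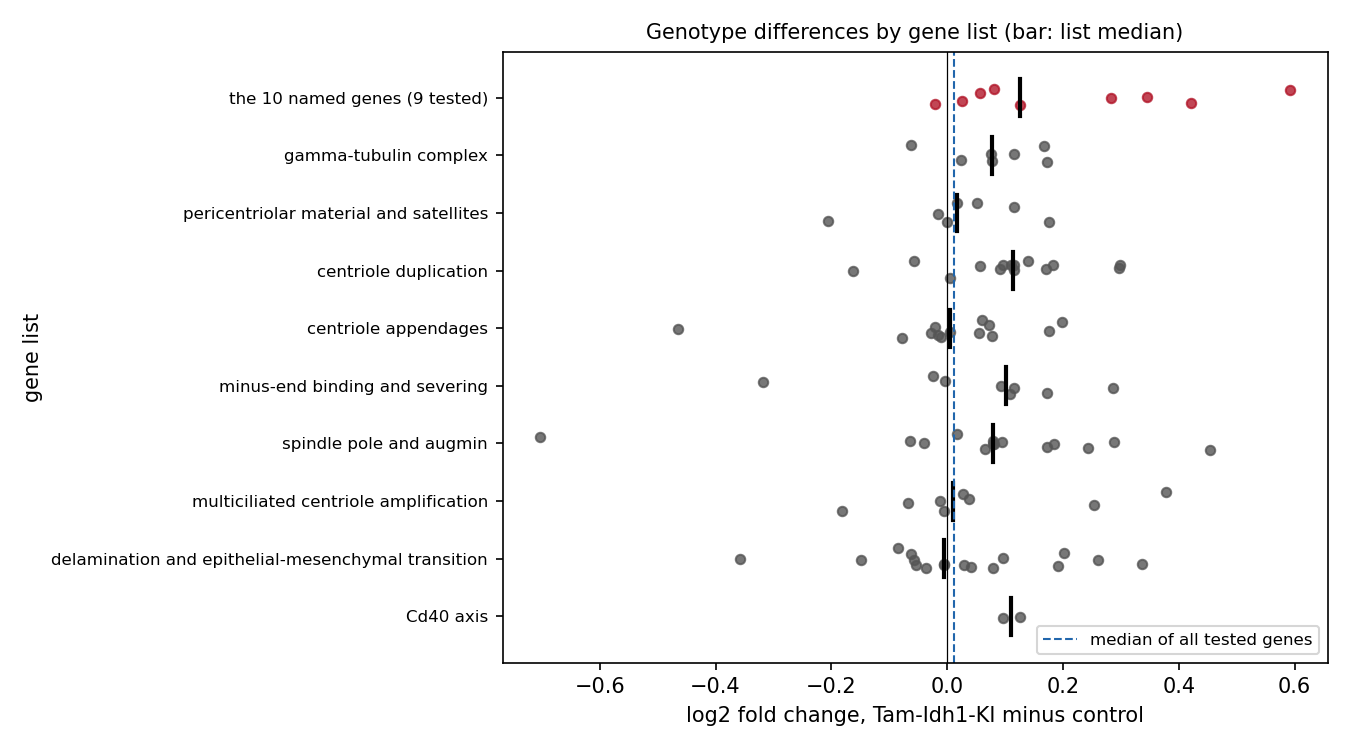
Log2 fold change (Tam-Idh1-KI minus control, horizontal axis) of every tested gene of each list, 1 point a gene, with a bar at the list's median and a dashed line at the median of all tested genes (0.013). The 9 tested members (red) have a median of 0.13 and the appendage list one of 0.0056.

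Markers of other cells were set beside the Akna values. Of 24 tested ependymal markers, 23 had a positive difference (median 0.31), and their summed level ran from 17500 to 37179 in Tam-Idh1-KI and from 17374 to 27210 in control mice. Foxj1, the ependymal master regulator, was at 0.04 ± 0.13 (SE) and Rsph1, of the radial spoke, at 0.31 ± 0.14. Of 14 mitotic markers 12 were positive (median 0.27; sums of 2819 to 7183 and 2753 to 5123), with Cdk1 at 0.35 ± 0.14. None of either list was called. In the residuals Akna correlated with the mean of the ependymal markers at r = 0.56 (permutation p = 0.0165, rho = 0.53, permutation p = 0.0268) and with the mitotic mean at 0.50 (permutation p = 0.0339, rho = 0.50, permutation p = 0.0369), with adjusted permutation p over 9 lists of 0.148 and 0.153 by r and 0.111 by rho. The oligodendrocyte mean followed by r and came above the mitotic mean by rho (r = 0.43, permutation p = 0.0710, rho = 0.51, permutation p = 0.0302, adjusted 0.213 and 0.111). The order changed when the 2 arrays farthest from the median of each list's mean were left out: r was then 0.53 for the microglial mean (0.36 with all arrays), 0.41 for the ependymal, 0.40 for the oligodendrocyte and 0.31 for the mitotic mean. Within the 2 days it was 0.51 and 0.67 for the ependymal and 0.60 and 0.22 for the mitotic mean. With the ependymal mean as a further covariate the Akna difference was 0.42 ± 0.12 (SE), and with the mitotic mean 0.47 ± 0.12, alternatives added after the data were seen (limma adjusted p = 0.430 and 0.397). With the same covariates, in that order, Ninl's difference was 0.41 ± 0.16 and 0.30 ± 0.14, that of Cdk5rap2 0.17 ± 0.17 and 0.07 ± 0.12, and that of Plk4 0.26 ± 0.24 and 0.23 ± 0.22. Since AKNA was described in lymphocytes, their markers were read too: Cd3e was detected on at most 8 arrays and Ptprc on at most 2 by any probe, and 1 of 15 lymphocyte markers was tested, at -0.20. Microglial markers gave 13 of 15 positive (median 0.11), with Aif1 at 0.01 ± 0.12, and neural stem cell and astrocyte markers 16 of 21 (median 0.14). Oligodendrocyte markers gave 10 of 12 positive (median 0.14) and endothelial markers 10 of 12 (median 0.07). Striatal and cortical neuron markers gave 5 of 12 (median -0.05) and choroid plexus markers 2 of 8 (median -0.12). The share of positive differences over all genes was 54.5%. Neuroblast markers gave 8 of 14 positive (median 0.05), close to the share over all genes. The defining genes Dcx, Dlx2 and Cd24a all lay above that median and do not stand for the list. Dcx was at 0.63 ± 0.17 with 8 of 9 Tam-Idh1-KI mice above their day's control mean (limma adjusted p = 0.171). Dlx2 was at 0.20 ± 0.13 with 7 of 9 (limma adjusted p = 0.690). Cd24a was at 0.53 ± 0.12 with 9 of 9 (limma adjusted p = 0.115), but its probe was detected on 11 of 18 arrays, with a control mean of 5.16, near the background. The part of these cells in the Akna difference was not tested. The covariates are means of markers from the same arrays, most of which had positive differences themselves, so the fits with them do not measure it.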

How the data were processed

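RNA was measured on 18 arrays, each from the SVZ of 1 mouse. The authors deposited, for each probe and array, a bead signal, which is an intensity on a linear scale with no normalisation, and a detection p-value against negative control beads; per the labels GenomeStudio was used (version: not given in the sources used here). A further table of log2 values, processed and deposited by the authors, holds values that rise with the signal in every array (Spearman rho 1), have medians of 6.22 to 6.30 and come from a normalisation that is unknown; they served as an alternative. In the platform annotation, which can be old, 34885 of 45281 probes were paired with a single gene symbol, 18 with several and 10378 with none.

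The signals were background corrected with the detection p-values, offset by 16, quantile normalised and taken to log2 with neqc of limma 3.58.1 in R 4.3.3. Probes with a detection p below 0.05 on at least 9 arrays were kept (18460 of those with a single symbol), and each gene was represented by its brightest. Genotype, hybridisation day and sex were fitted with lmFit and eBayes, with Benjamini-Hochberg adjustment over all 11465 genes and a threshold of 0.05; the calculation was tested on simulated data. Undetected probes were given values and no test. Levels of different probes were not compared. Permutation tests drew 100000 resamples, with residuals shuffled freely over the arrays and no allowance for the fitted terms. The number of arrays limits the precision.

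The members and the lists were chosen with earlier results of these data known. The text names the 10 members, up to 4 genes of each list by smallest unadjusted p, the 6 genes most like Akna, and defining markers. Replicate numbers 1 to 9 recur in both groups: deviations of same-numbered arrays correlated above 0.1 in 9 of 9 pairs (mean 0.481), and in 4 of 9 within hybridisation days (mean 0.05), which the numbers share. Nothing in the labels names litters.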

Additional observations from a re-analysis of the deposited data

Results flagged for a closer look

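Ninl in Tam-Idh1-KI mouse T5 stood apart from the other 8 mice of its group: its value was 7.55 and the next was 7.12, a gap of 0.508 of the group's range, above the critical value of Dixon's test for 9 samples. This was the only one of 18 groups examined (9 genes in 2 groups), and chance flags about 1 group in 20. Without that array the Ninl difference was 0.37 (limma adjusted p = 0.294).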

How the results depend on the processing

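All 35 settings reuse the contrast on which Akna was selected. Akna has 1 probe, detected on all arrays, so settings that change only the choice or filter of probes return its value unchanged. The Akna difference kept its sign in all 35 settings and passed the threshold in 8, among them the mean of kept probes, detection on all arrays, genotype with day alone, and array weights. It missed the threshold, so that 0 members were called higher, with no detection filter (0.59), with no background correction (0.27), with median scaling (0.67), with cyclic loess (0.58), with the authors' processed log2 values (0.40), with genotype only (0.59), with age added (0.63), on the first day alone (0.54), on the second alone (0.70), with adjustment over all kept probes (0.59), and with the ependymal (0.42) or mitotic mean (0.47) added. The numbers shared by the groups allow a paired fit: with the replicate block it was 0.57 and 0 members were called higher. Leaving out 1 array at a time gave 0.53 to 0.65 and 0 to 1 members called higher. The cause was not tested, but fewer arrays enter the fits by day. Median scaling moved the median of all genes from 0.013 to 0.12. Over all genes 11 were called higher and 9 lower, against 16 and 7 with median scaling, 6 and 8 with cyclic loess, 45 and 16 with array weights, 3 and 5 with genotype only or with the replicate block, and 1 and 3 on the first day alone.

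With the mean of the kept probes Odf2 was -0.18 and Nin 0.06. Leaving out 1 array moved Pcnt to 0.0063 (without T7) to 0.16 (without T1). Some members near 0 changed sign. Odf2 was 0.0902 with median scaling, 0.0436 with array weights, 0.0889 on the second day alone, 0.11 with the ependymal and 0.0409 with the mitotic mean, and -0.0875 to 0.0104 leaving out 1 array. Camsap3 was -0.10 with array weights, -0.17 on the second day alone and -0.0385 to 0.0903 leaving out 1 array. Pcnt was -0.0523 on the first day alone and -0.0571 with the mitotic mean, Cep152 -0.0108 on the second day alone and Nin -0.0311 with the ependymal mean. The replicate block changed no other member's call. The member counts for hybridisation day, sex and the interactions did not move by over 1.5 times under the alternatives run for them. Plk4 could not be fitted where detection on all arrays was asked.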
